A study of Homo sapiens with 14 samples.

Results

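Collagen genes were followed across 14 Illumina bead arrays of 2 human melanoma cell lines. A gene was taken as a member when the annotated symbol of a probe had the form of a collagen chain (COL, a type number, A, a chain number), which gave 43 genes with 73 probes among 20043 genes with a probe. Each gene was read through its brightest probe, and 34 of the 43 had a probe detected on at least 2 arrays (detection p under 0.05) and were tested, among 15544 genes tested in all. COL17A1 was the 1 collagen chain symbol of RefSeq with no annotated probe. The genes tested can include some that passed through the group where they were high, so counts over them are given as descriptions.

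The study altered the forkhead transcription factor FOXD1 in both directions. WM266-4 cells were treated with a negative control siRNA, FOXD1 siRNA 1 or FOXD1 siRNA 2 (3 arrays each). A375 cells received the empty backbone of the FOXD1 plasmid (2 arrays) or the FOXD1 plasmid (3 arrays), and the labels speak both of transfection and of transduction. Both lines carry a BRAF mutation per the labels, and each condition was studied in 1 established line. No time after treatment is given in the labels, nor whether replicates came from separate cultures. The p-values therefore cover the spread between these arrays alone, which may be technical.

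Collagens, most of them secreted, are proteins in which 3 chains wind into a triple helix, made of identical chains or of the products of different genes. Fibrillar collagens build the tensile fibres of connective tissue, fibril-associated collagens bind to the surface of those fibres, type IV forms the network of basement membranes and short-chain collagens form hexagonal lattices. Fibroblasts are the main source of fibrillar collagen in skin, and melanoma cells can also make matrix proteins.

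The siRNA sequences given in the labels are shown because each defines a treatment group. FOXD1, their named target, lies on chromosome 5. The labels do not say which strand of each duplex is written.
FOXD1 siRNA 1: uacugcuaggauuuccaauuguuaa
FOXD1 siRNA 2: gccgaggaaacagacaucgacgugg

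The upstream regions of COL12A1, COL15A1, COL16A1 and COL7A1, 4 of the 8 collagens called with FOXD1 overexpression, are shown next, as the 250 bases before the start of transcription (RefSeq, GRCh38.p14, written 5′ to 3′ on the strand of the gene). The first 3 genes were higher with overexpression and COL7A1 was lower. Capitals mark GC boxes, GGGCGG on either strand.
COL12A1, chr6:75206054-75206303, minus strand: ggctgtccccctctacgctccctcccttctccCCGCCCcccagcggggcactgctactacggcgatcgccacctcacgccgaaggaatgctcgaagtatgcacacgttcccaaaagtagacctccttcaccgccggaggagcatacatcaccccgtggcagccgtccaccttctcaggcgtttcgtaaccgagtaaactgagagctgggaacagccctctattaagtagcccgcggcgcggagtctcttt
COL15A1, chr9:98943657-98943906, plus strand: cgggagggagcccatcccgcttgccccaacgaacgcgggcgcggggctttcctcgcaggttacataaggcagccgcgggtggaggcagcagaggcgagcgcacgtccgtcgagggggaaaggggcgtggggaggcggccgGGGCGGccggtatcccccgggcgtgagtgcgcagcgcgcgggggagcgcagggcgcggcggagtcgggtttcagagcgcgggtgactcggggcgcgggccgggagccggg
COL16A1, chr1:31704018-31704267, minus strand: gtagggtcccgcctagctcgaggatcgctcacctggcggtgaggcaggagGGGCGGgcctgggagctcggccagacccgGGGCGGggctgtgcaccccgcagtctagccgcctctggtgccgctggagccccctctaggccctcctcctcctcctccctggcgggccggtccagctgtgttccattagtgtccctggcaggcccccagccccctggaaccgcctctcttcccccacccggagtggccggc
COL7A1, chr3:48595330-48595579, minus strand: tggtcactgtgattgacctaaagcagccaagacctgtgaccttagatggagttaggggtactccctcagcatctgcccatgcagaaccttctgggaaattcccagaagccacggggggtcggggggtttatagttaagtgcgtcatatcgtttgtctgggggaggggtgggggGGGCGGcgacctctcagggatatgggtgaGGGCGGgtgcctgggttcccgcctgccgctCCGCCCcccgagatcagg

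RefSeq promoters were matched for 31 of the 43 collagen genes, with 43 start sites in all. The GC box was found in 24 of these 43 windows, against 42.64% of all 35116 windows. Both strands were searched, and no searched motif contains another. The forkhead motif GTAAACA was found in 0 of the 43, against 2.979% of all windows. The TEAD motif GGAATG was found in 3 (11.89% of all windows), 1 of them the COL12A1 window printed above, and the AP-1 motif TGANTCA in 1 (6.573%). A match describes letters in these windows and is not a measured binding site.

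COL4A1 and COL4A2, the chains of the common type IV trimer, lie head to head, and the 126 bases that their upstream windows share are shown because both genes were detected on every array.
Between COL4A1 and COL4A2, chr13:110307158-110307283, plus strand: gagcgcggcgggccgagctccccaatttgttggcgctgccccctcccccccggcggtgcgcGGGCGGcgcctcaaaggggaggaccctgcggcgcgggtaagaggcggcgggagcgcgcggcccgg
The shared stretch has a G and C content of 80.2% and holds 1 GC box.

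Before the collagens, the treatments were checked on FOXD1 itself. Its log2 signal was 5.60, 5.68 and 6.16 on the control siRNA arrays. With siRNA 1 it was 4.34, 4.35 and 4.58 and was detected on 1 of 3 arrays. The fall was 2.62-fold (limma adjusted p = 7.99e-05), a fold whose lower end lies near background. It was 5.92, 6.01 and 5.81 in the arrays labelled FOXD1 siRNA 2, a difference of 0.10 (95% confidence interval -0.25 to 0.45, adjusted p = 0.802). Their source label gives FOXD2 in place of FOXD1, and directions drawn from them rest on a label that the FOXD1 probe did not bear out. With overexpression FOXD1 was at 7.52, 7.75 and 7.94 against 7.33 and 7.30 with vector, higher on 3 of 3 arrays without passing the test (difference 0.42, adjusted p = 0.187). CCN2, a matricellular gene named in the title under its older symbol, fell 8.27-fold and 9.77-fold in the 2 siRNA groups and rose 6.09-fold with overexpression (limma adjusted p = 7.27e-06, 1.17e-05 and 0.000388). Vector replicate 1 was deposited with an intensity column that repeats the one of overexpression replicate 3. That array is represented by the authors' processed value, and every A375 comparison rests on this choice.

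The labelled cell type was checked against fixed markers. Of the 7 melanocytic markers with a probe, 6 or 7 were detected on every array of each group, with MLANA, a melanosome antigen, not detected in the WM266-4 control arrays. Their summed linear signal was 22863 to 23929 with A375 vector and 15684 to 30293 with overexpression. It was 14431 to 19006 with control siRNA, 12944 to 15948 for siRNA 1 and 13013 to 16158 in the arrays labelled siRNA 2. The markers named next were chosen after their values were seen. With overexpression 1 of the 7 was called, beside 7.17% of all genes. This was MLANA, which rose by 1.95 on the log2 scale (limma adjusted p = 0.0192), while 4 differed downward and the median was -0.15. The pigment cell genes GPR143 and PMEL were among the 4 (-1.22 and -0.99, adjusted p = 0.0515 and 0.539). With siRNA 1, 1 of the 7 was called, beside 13.3% of all genes. This was TYRP1, an enzyme of pigment synthesis, which rose by 1.62 (adjusted p = 0.0249), while 4 differed downward and the median was -0.096. In the arrays labelled siRNA 2, 0 of the 7 were called, beside 6.61% of all genes, and the median was 0.18. TYRP1 was at 7.54, 8.41 and 7.00 there, against 6.07, 6.64 and 5.64 with control siRNA. Of the 8 fibroblast markers, PDGFRA, a defining receptor, was detected on no array, and 2 to 4 were detected on every array of a group. FAP, a protease of activated fibroblasts, was at 7.95 to 9.62 over all arrays. It was the brightest of the 8 on every array, so the summed signal largely follows this gene. The summed signal of the fibroblast markers on the control siRNA arrays was 704 to 827. The siRNA 1 arrays had 773 to 978, and those labelled siRNA 2 had 564 to 651. It was 549 to 611 with A375 vector and 405 to 596 with overexpression, with no overexpression array above the highest vector array. FAP was 0.68 higher with siRNA 1 than in the arrays labelled siRNA 2 (adjusted p = 0.0472). Overexpression replicate 3 stood apart from the other A375 arrays on some markers and not on others. PMEL was at 10.01 on it and at 13.12 to 13.56 on the other 4, GPR143 at 5.69 against 7.00 to 8.05, and the fibroblast marker FBLN1 at 4.95 against 6.06 to 6.94. MITF was also lowest on it (9.49 against 9.95 to 10.44). TYRP1 was highest on it (8.27 against 6.80 to 8.06), and MLANA, SOX10 and TYR lay within the range of the other 4. Of the 5 endothelial markers, CDH5 was detected on no array, and 1 or 2 were detected on every array of a group. In the control siRNA and siRNA 1 groups this was VWF, which was at 4.63 to 6.62 over all 14 arrays. The summed signal of the endothelial markers was 123 to 200 over all groups. The part of these markers in the collagen results was not tested. In bulk RNA, fewer cells making a transcript and less of it per cell cannot be told apart.

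Detection differed between collagen classes. Of the 43 genes, 19 (44.2%) were detected on all 14 arrays, against 48.7% of all genes with a probe, and 5 (11.6%) on none, against 13.3%. Detection on all arrays held for 7 of 10 fibril-associated genes, 2 of 3 short-chain genes, 2 of 6 type IV genes, 3 of 11 fibrillar genes and 5 of the 13 others. At a detection p under 0.01 the total was 18.

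**Figure D1:**
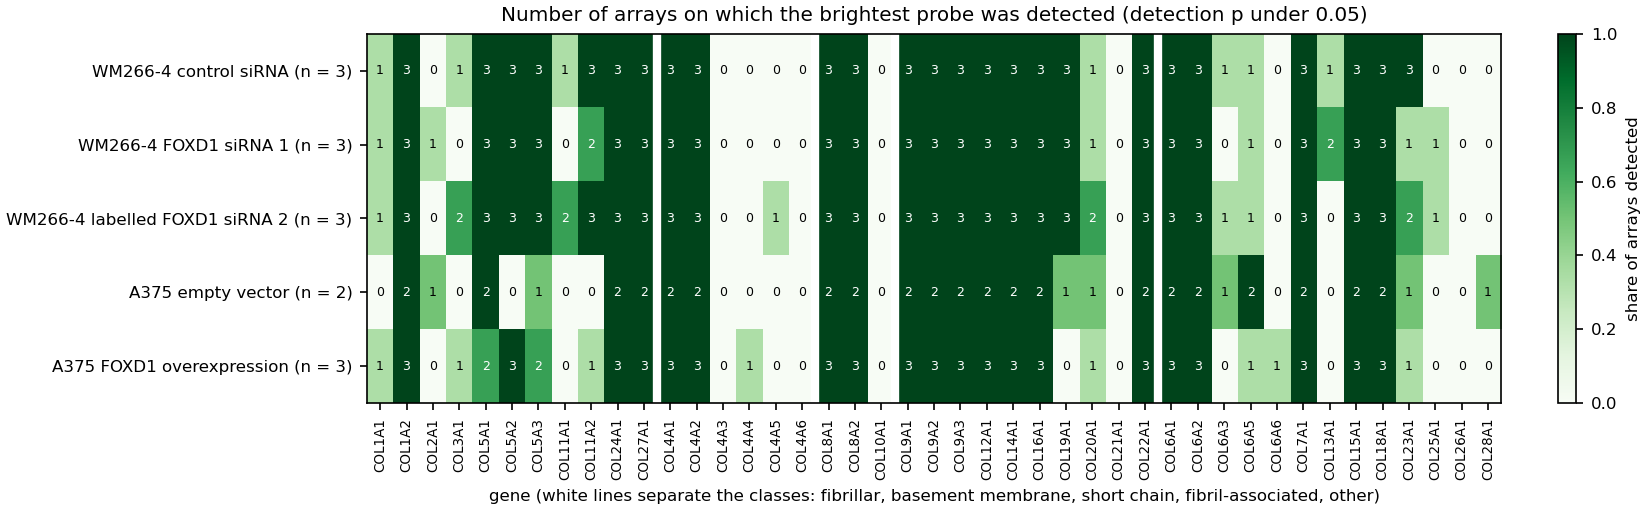
Number of arrays of each group on which the brightest probe of each of the 43 collagen genes was detected, with genes ordered by class on the x axis and groups on the y axis. Colour gives the share of the group's arrays; COL1A2, COL4A1, COL4A2, COL6A1 and COL6A2 are detected on all 14 arrays and COL4A3 and COL4A6 on none.

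Partner chains of 1 trimer were not detected alike. COL1A2, the second chain of type I collagen, was detected on 14 arrays, whereas COL1A1, which supplies most chains of that trimer and has 1 probe here, was detected on 4. COL3A1, which forms type III collagen alone, was detected on 4. Of the chains of type VI, which forms beaded microfibrils, COL6A1 and COL6A2 were detected on 14 arrays and COL6A3 on 3. Of the type V chains, which set fibril diameter, COL5A1 was detected on 13 arrays and COL5A2 and COL5A3 on 12 each. All 3 type IX genes, COL9A1, COL9A2 and COL9A3, were detected on 14. A probe that is not detected sets only an upper bound on its transcript, and probes differ in brightness, so levels of partner chains were not set against each other.

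With FOXD1 overexpression, 7 collagen genes rose and 1 fell. The largest rise was in COL8A1, a short-chain collagen of vessel walls and of the basement membrane of the corneal endothelium. Those that rose with it were the fibril-associated COL12A1, COL16A1, COL22A1 and COL14A1, the type I chain COL1A2 and COL15A1, a collagen of basement membrane zones. COL7A1, which forms the anchoring fibrils below the epidermis, fell. The 8 genes are 23.5% of the 34 tested, beside 7.17% of all genes tested. In each direction, 3.69% of all genes were called higher and 3.49% lower. Over the 34 the median difference was 0.23 on the log2 scale, beside 0.0034 over all genes.

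COL8A1 had a log2 signal of 5.51 and 5.55 on the vector arrays and of 8.49, 8.51 and 9.95 with overexpression. All 3 overexpression arrays lay far above both vector arrays, and replicate 3 was the highest. The rise was 10.9-fold (log2 difference 3.45, SE 0.644, limma adjusted p = 0.00766). It was smaller on the authors' log2 values, at 6.86 and 6.88 with vector and 8.74, 8.75 and 10.02 with overexpression. A second COL8A1 probe, detected on 14 arrays, rose by 2.60 (adjusted p = 0.0193 over probes). Another, detected on 6 arrays, differed by 0.33 (adjusted p = 0.586).

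COL12A1 stood at 5.42 and 4.91 with vector and at 6.46, 7.39 and 7.33 with overexpression. The groups did not overlap, and overexpression replicate 1 was the lowest of its 3. The rise was 3.72-fold (log2 difference 1.90, SE 0.275, adjusted p = 0.00168). It was smaller on the authors' log2 values, at 6.82 and 6.65 with vector and 7.33, 7.90 and 7.86 with overexpression. A second COL12A1 probe, detected on 10 arrays, differed by 0.26 (adjusted p = 0.757 over probes), so the 2 probes of this gene disagreed.

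COL1A2 stood at 9.54 and 9.65 with vector and at 10.66, 11.15 and 11.74 with overexpression. All overexpression arrays were higher than both vector arrays, and the 3 spread over about 1 log2 unit. The rise was 3.01-fold (log2 difference 1.59, SE 0.261, limma adjusted p = 0.00368), and its second probe, detected on 14 arrays, rose by 1.87 (adjusted p = 0.000729). Its partner COL1A1 was listed at 4.26 and 4.50 with vector, where it was not detected, and at 4.22, 5.22 and 4.35 with overexpression, where 1 array detected it.

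COL16A1, a fibril-associated collagen, was at 6.93 and 5.84 with vector and at 7.81, 7.87 and 7.77 with overexpression. The vector arrays differed from each other by more than 1 log2 unit while the overexpression arrays lay close together. The rise was 2.70-fold (SE 0.232, adjusted p = 0.00339).

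COL22A1, found at tissue junctions such as that of muscle and tendon, was at 8.73 and 8.09 with vector and at 9.59, 9.99 and 9.67 with overexpression. COL15A1, related to the collagen that releases endostatin, was at 9.16 and 9.02 with vector and at 9.79, 10.53 and 10.68 with overexpression. COL14A1, a fibril-associated relative of COL12A1, was at 5.58 and 5.84 with vector and at 6.69, 7.19 and 6.29 with overexpression. None of the 3 genes had overlapping groups, which their being called on these same arrays makes likely. The rises were 2.53-fold, 2.37-fold and 2.02-fold (limma adjusted p = 0.0192, 0.00779 and 0.0215).

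COL7A1 was at 8.49 and 8.46 with vector and at 7.93, 7.57 and 7.18 with overexpression. Every overexpression array lay below both vector arrays. The fall was 1.89-fold (SE 0.26, adjusted p = 0.0483), and it no longer passed the test under 15 of 24 other settings.

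**Figure D2:**
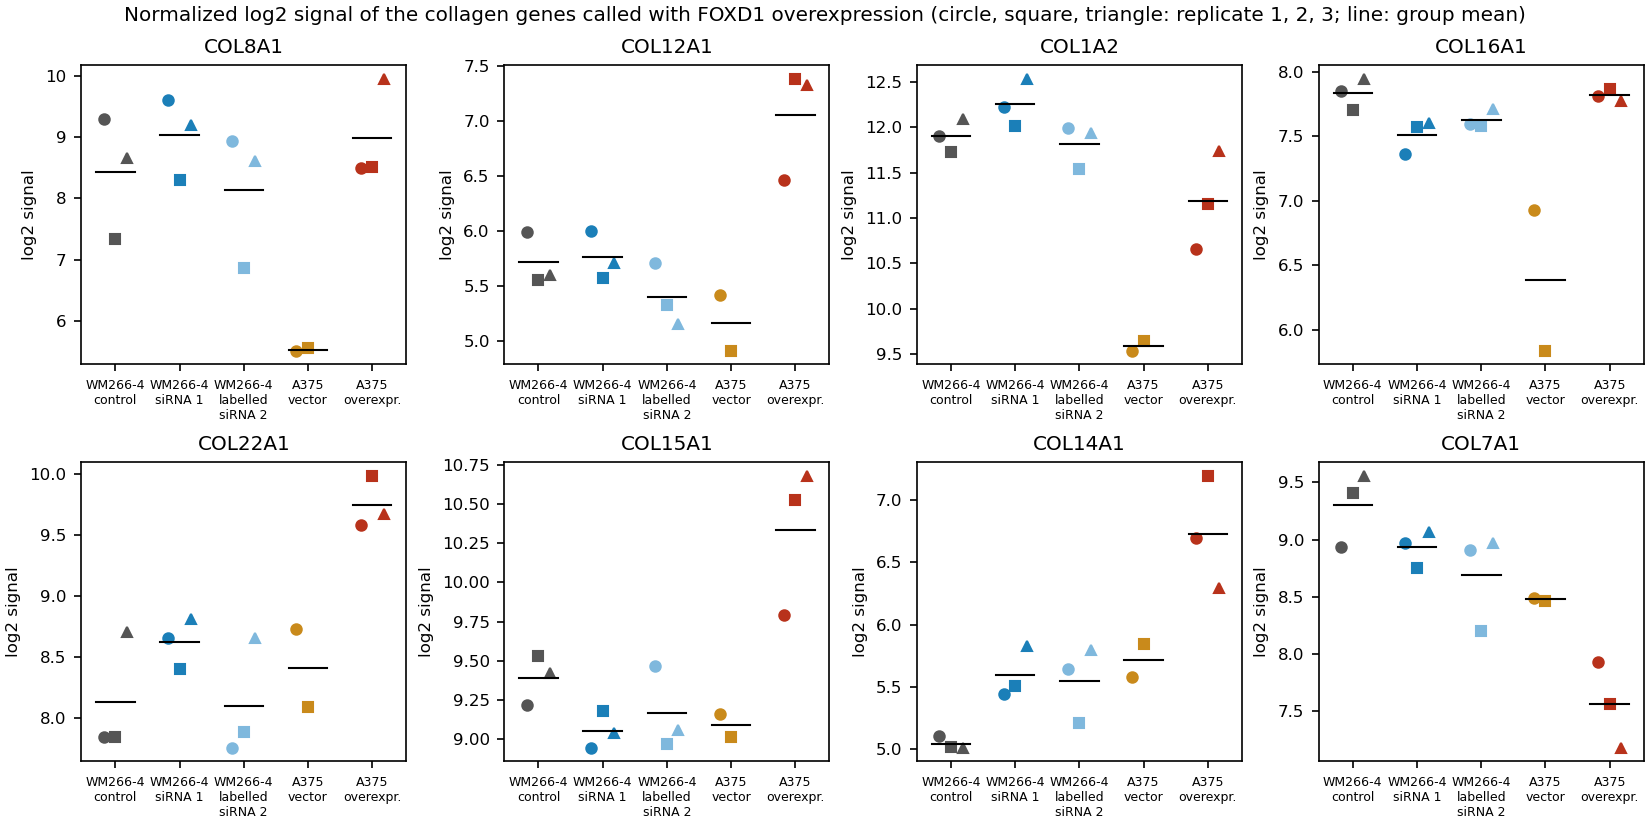
Normalized log2 signal (y axis) of the 8 collagen genes called with FOXD1 overexpression, on each array of the 5 groups (x axis). Points are arrays with the shape giving the replicate number, lines are group means, and each panel has its own y axis; all 3 overexpression arrays lie above both vector arrays in 7 panels and below them for COL7A1.

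By class, 4 of the 9 tested fibril-associated genes rose, 1 of 11 fibrillar genes, 1 of 2 short-chain genes and 0 of 2 type IV genes. Among the 10 others 1 rose and 1 fell. Over all genes tested, 3.69% were called higher and 3.49% lower. The classes are small, and differences between them were not tested. COL8A2, the partner of COL8A1 in type VIII collagen, was at 6.08 and 6.33 with vector and at 5.73, 5.65 and 5.54 with overexpression. Its groups did not overlap, in the direction opposite to COL8A1, but the difference of -0.57 was not called (adjusted p = 0.0769). COL5A2 was not detected on the vector arrays and was detected on all 3 overexpression arrays at 4.97, 5.45 and 6.96. It was at least 2.59-fold higher, measured against the lowest detected signal of the vector arrays, and was not called (adjusted p = 0.06). COL6A2 was at 6.49 and 7.30 with vector and at 7.69, 8.30 and 8.27 with overexpression (difference 1.19, adjusted p = 0.0788). Among the 26 genes not called, differences ran from that of COL8A2 to 1.48 in COL5A2. COL18A1, the source of endostatin, differed by 0.76 (adjusted p = 0.0789), and the type IV chains COL4A1 and COL4A2 by 0.46 and 0.04 (adjusted p = 0.285 and 0.953).

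These calls rest on 2 vector arrays. Without vector replicate 2, COL12A1, COL16A1 and COL1A2 were still called, and COL8A1 had a difference of 3.47 with an adjusted p of 0.0762. COL14A1, COL15A1, COL22A1 and COL7A1 were also lost (adjusted p = 0.0967, 0.0871, 0.219 and 0.217). Without vector replicate 1, the array with the replaced value, the 6 other risers were called, and COL14A1 and COL7A1 were not (adjusted p = 0.118 and 0.154). Without overexpression replicate 2, 5 were called, and COL14A1, COL22A1 and COL7A1 were lost. Overexpression replicate 3, the array that stood apart on PMEL and GPR143, was the highest of its group for COL8A1, COL1A2 and COL15A1. Without it the 7 risers were called, with COL8A1 at 2.97, COL1A2 at 1.32 and COL15A1 at 1.07 (adjusted p = 0.0192, 0.00562 and 0.0181), and COL7A1 was lost (adjusted p = 0.123). With the copied column taken as deposited, 0 of the 34 were called in limma and 3 had an unadjusted p under 0.05.

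In WM266-4 the same 34 genes were compared between FOXD1 siRNA 1 and control siRNA, to ask which collagens differ where FOXD1 was lower. A single gene was called, COL19A1, a fibril-associated collagen of basement membrane zones, and it fell. The call rate over all genes tested was 13.3%, with 6.82% higher and 6.48% lower, and 2 of the 34 collagens had an unadjusted p under 0.05. COL19A1 was at 6.72, 6.72 and 6.26 with control siRNA and at 5.74, 5.93 and 5.21 with siRNA 1. Every siRNA 1 array was below every control array, and the fall was 1.91-fold (log2 difference -0.94, SE 0.244, limma adjusted p = 0.0196). Its second probe fell by 1.25 (adjusted p = 0.00213 over probes). The call was lost without control replicate 1, control replicate 2 or siRNA 1 replicate 3 (adjusted p up to 0.0944).

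In the arrays labelled FOXD1 siRNA 2, COL19A1 was again the 1 collagen called, at 5.69, 4.68 and 5.43, while 6.61% of all genes were called (3.96% higher and 2.64% lower) and 5 of the 34 had an unadjusted p under 0.05. All 3 arrays were below the control arrays, and replicate 2 was the lowest. The fall was 2.46-fold (log2 difference -1.30, SE 0.244, adjusted p = 0.00568), and it was called under all 24 other settings. The second probe fell by 1.00 (adjusted p = 0.0176 over probes). These comparisons share the control arrays. The 33 collagens not called ranged from -0.62 in COL9A2 to 0.60 in COL8A1 with siRNA 1, and from -0.78 in COL6A1 to 0.51 in COL14A1 in the arrays labelled siRNA 2. In A375, COL19A1 was detected on 1 of 2 vector arrays and on 0 of 3 overexpression arrays.

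The genes that moved with overexpression gave the following values with the siRNAs. COL8A1 differed by 0.60 with siRNA 1 and by -0.29 in the arrays labelled siRNA 2, COL12A1 by 0.04 and -0.32, and COL1A2 by 0.35 and -0.09. COL16A1 differed by -0.32 and -0.20, COL22A1 by 0.49 and -0.03, COL15A1 by -0.34 and -0.22, COL14A1 by 0.55 and 0.51, and COL7A1 by -0.37 and -0.61. None of these passed the limma test without the replicate number as a block. With the block, COL14A1 and COL8A1 were called higher with siRNA 1 (adjusted p = 0.0287 and 0.0346). For COL12A1 the confidence interval with siRNA 1 was -0.48 to 0.57 without the block. For COL8A1 it was -0.63 to 1.84 without the block and 0.23 to 0.98 with it.

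**Figure D3:**
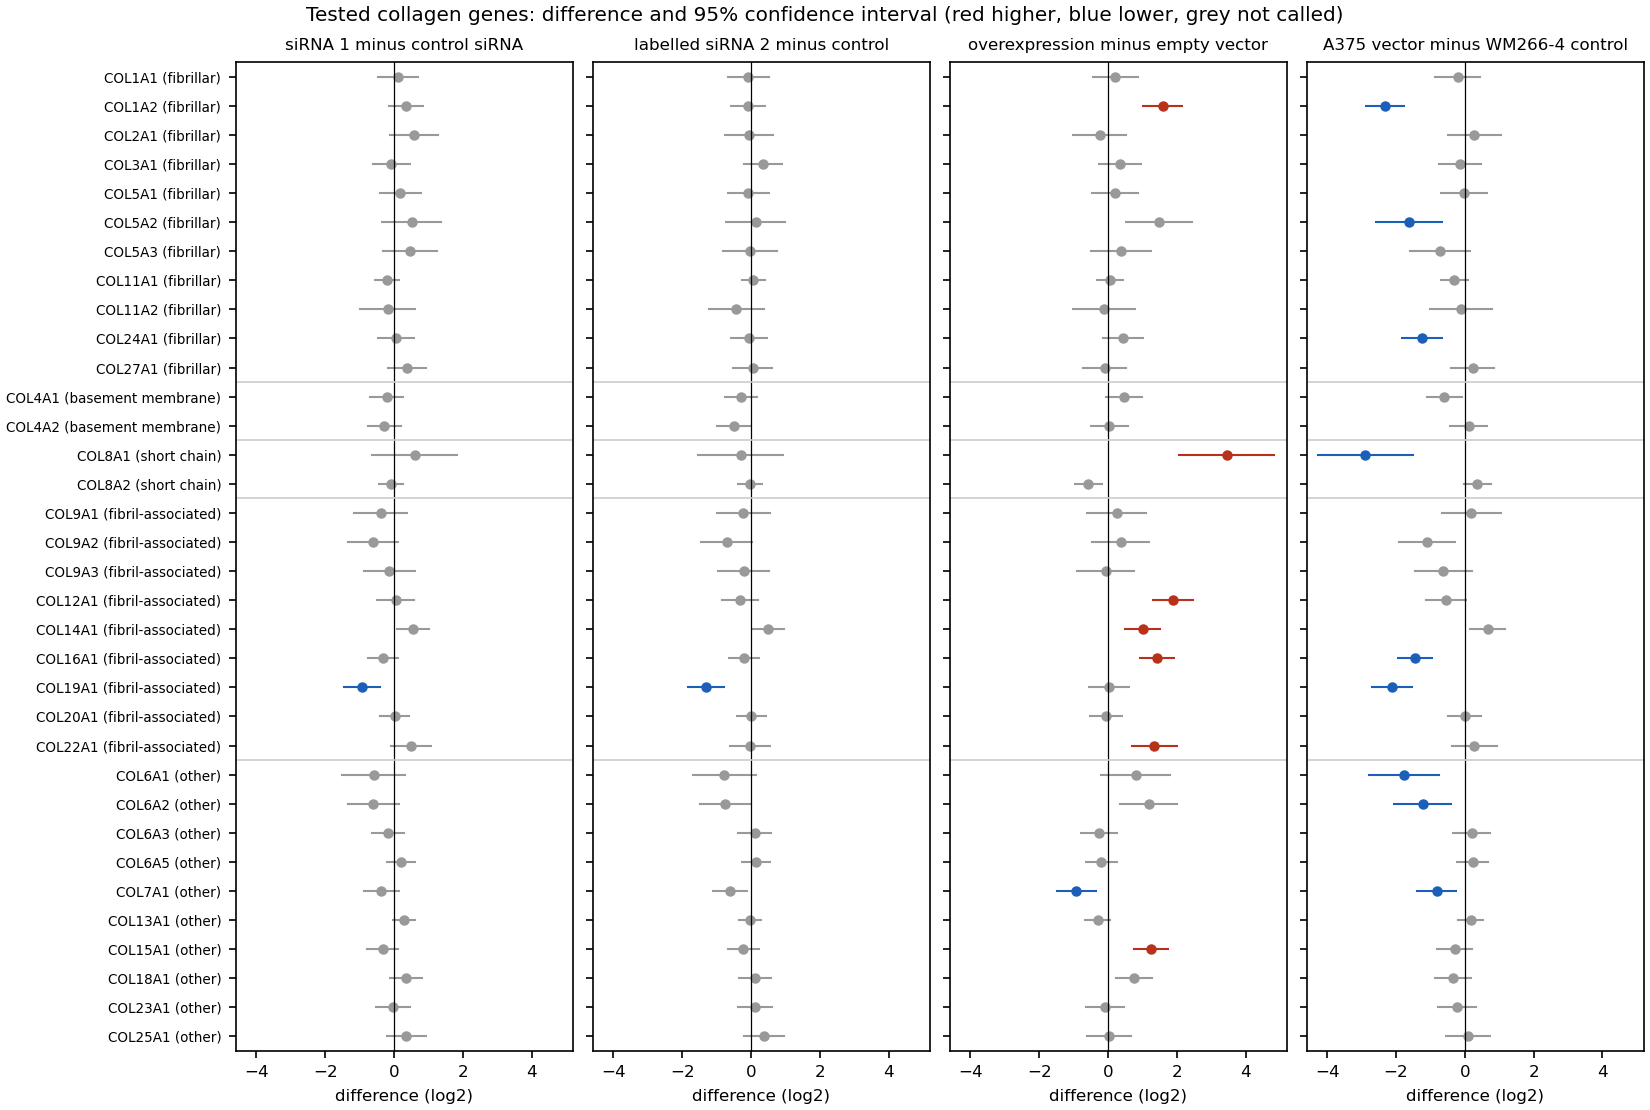
Log2 difference (x axis) of each of the 34 tested collagen genes (y axis, by class) in 4 comparisons. Points are differences and bars 95% confidence intervals, in red for called higher, blue for called lower and grey for not called; COL19A1 is the 1 gene called in each siRNA panel, and the interval of COL8A1 is among the widest.

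In WM266-4, arrays with the same replicate number deviated together, and several collagens followed the number in all 3 groups. Replicate 2 was the lowest of its group in all 3 groups for 7 of the 34 collagens (20.6%), beside 7.66% of all genes: COL1A2, COL3A1, COL8A1, COL8A2, COL9A1, COL9A3 and COL27A1. Replicate 3 was the highest in all 3 for 8 (23.5%), beside 7.58%: COL6A1, COL6A2, COL7A1, COL9A2, COL9A3, COL16A1, COL22A1 and COL24A1. COL8A1 in replicates 1, 2 and 3 was at 9.30, 7.33 and 8.66 with control siRNA, at 9.61, 8.30 and 9.20 with siRNA 1 and at 8.93, 6.87 and 8.62 in the arrays labelled siRNA 2. Replicate 2 was the lowest array of each group, and the groups overlapped. Replicate 1 was the highest in all 3 groups for 4 collagens (5.31% of all genes) and the lowest for 2 (6.06%). Replicate 2 was the highest for 0 (7.76%) and replicate 3 the lowest for 1 (7.13%). The labels do not say what the number stands for.

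With the replicate number as a block, 5 collagens were called for siRNA 1, beside 17.9% of all genes. COL19A1 was joined by COL14A1 and COL8A1, which rose by 0.55 and 0.60, and by COL6A2 (-0.60, adjusted p = 0.0409) and COL9A2 (-0.62, adjusted p = 0.0409), which fell. In the arrays labelled siRNA 2 the blocked fit called 3, beside 10.4% of all genes: COL19A1, COL6A2 (-0.75, adjusted p = 0.0265) and COL9A2 (-0.71, adjusted p = 0.0358), all lower. COL6A2 was at 7.85, 7.93 and 8.59 in control replicates 1, 2 and 3, at 7.53, 6.95 and 8.09 with siRNA 1 and at 7.60, 6.68 and 7.84 in the arrays labelled siRNA 2. The other COL6A2 probes, detected on 14 and 12 arrays, differed by -0.31 and -0.26 with siRNA 1 in the fit without the block. In the arrays labelled siRNA 2 they differed by -0.62 and -0.15. None of these was called over probes, and the block was not run on them. On the brightest probe, each siRNA array was below the control array of its own number. COL9A2, a chain of the fibril-associated type IX, was likewise below in each of the 6 pairs, at 7.44, 7.49 and 8.18 against 6.99, 6.64 and 7.63 and against 7.06, 6.31 and 7.60.

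**Figure D4:**
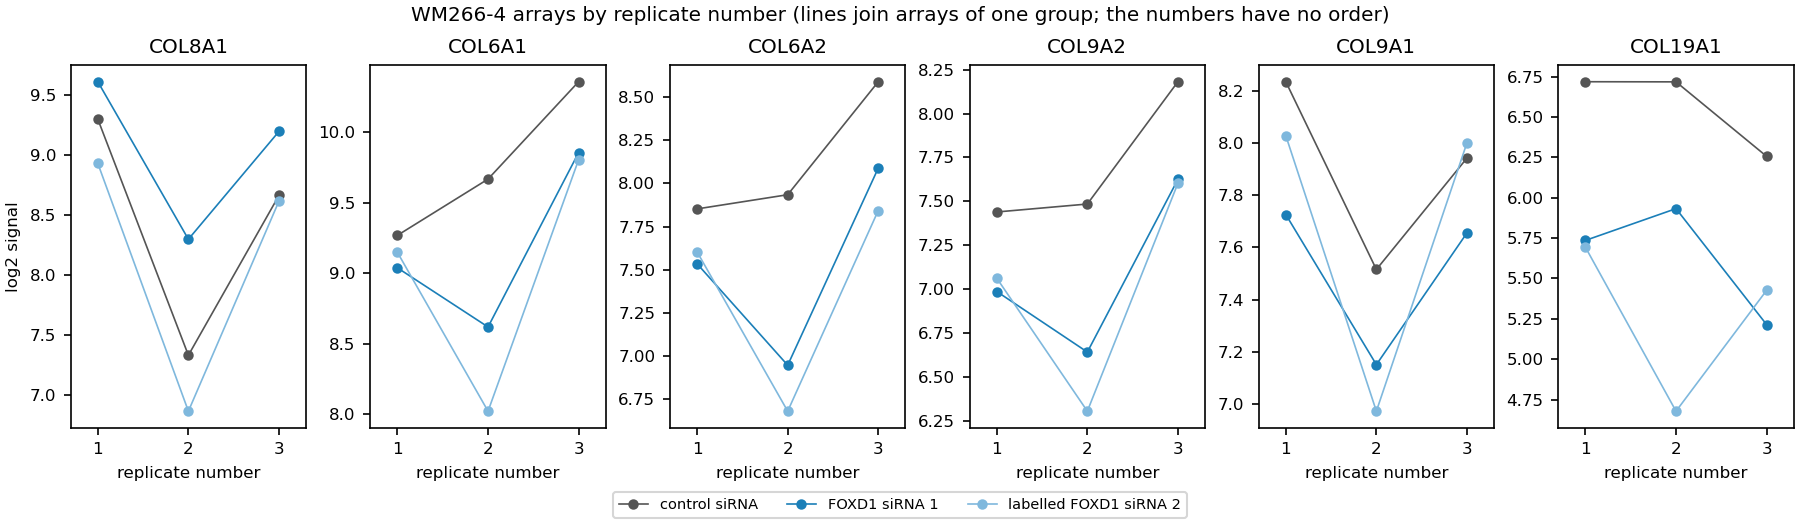
Normalized log2 signal (y axis) of 6 collagen genes on the WM266-4 arrays by replicate number (x axis), with a line for each of the 3 groups. Replicate 2 is the lowest of each group for COL8A1 and COL9A1 and replicate 3 the highest for COL6A1, COL6A2 and COL9A2; COL19A1 is lower in all 6 siRNA arrays than in any control array.

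The siRNA groups were also compared directly. Of the 34 collagens 0 were called in limma, 0 had an unadjusted p under 0.05, and 5.52% of all genes were called (1.75% higher and 3.77% lower). With the replicate block COL8A1 was 0.90 higher with siRNA 1 than in the arrays labelled siRNA 2 (adjusted p = 0.0108), and 8.49% of all genes were called.

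The lines were compared in their control arrays, A375 with vector against WM266-4 with control siRNA. In all, 9 collagens were lower in A375 and 0 higher, beside 9.09% of all genes lower, 11.8% higher and 20.9% called either way. The largest differences were in COL8A1 (-2.90), COL1A2 (-2.32), COL19A1 (-2.11) and COL6A1 (-1.77), with limma adjusted p of 0.00566, 5.75e-05, 0.000152 and 0.0166. COL16A1 (-1.45), the fibrillar COL24A1 (-1.24), COL6A2 (-1.23) and COL7A1 (-0.82) were also lower. The other COL6A2 probes, detected on 14 and 12 arrays, differed by -0.24 and -0.51 (adjusted p = 0.639 and 0.4 over probes). The COL6A2 call was lost with the mean of the kept probes (-0.66, adjusted p = 0.156) and in 6 of 23 settings in all. COL5A2, not detected with vector, was at least 2.85-fold lower (adjusted p = 0.0189). COL6A1, the first chain of type VI, was at 9.27, 9.67 and 10.36 in WM266-4 and at 7.61 and 8.39 in A375. COL24A1 was at 6.06, 6.22 and 6.27 in WM266-4 and at 4.79 and 5.09 in A375. COL16A1 was at 7.85, 7.70 and 7.94 in WM266-4, above both vector arrays. None of the 9 had overlapping groups, which their being called on these same arrays makes likely. The 25 genes not called ran from -1.10 in COL9A2 (adjusted p = 0.0563) to 0.67 in COL14A1 (adjusted p = 0.0603), and the type IV chains COL4A1 and COL4A2 differed by -0.59 and 0.11. Line, vehicle and any batch cannot be told apart here. The vector arrays are shared with the overexpression comparison, so low vector values enter both. Without vector replicate 1, COL24A1, COL5A2, COL6A1, COL6A2 and COL7A1 were no longer called. COL5A2 and COL7A1 were also lost without vector replicate 2, with differences of -1.50 and -0.80. Either fit leaves 1 vector array. COL6A2 and COL7A1 were also lost without WM266-4 control replicate 2, and these and COL6A1 without control replicate 3.

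Collagen synthesis needs hydroxylases, chaperones and transport factors in the endoplasmic reticulum, and 22 of 23 such genes were tested. With overexpression 1 rose and 2 fell, 13.6% of the 22 beside 7.17% of all genes. PLOD2, which hydroxylates lysines used in crosslinks, rose from 9.85 and 10.03 to 10.81, 11.03 and 10.79 (1.91-fold, adjusted p = 0.00268). TMEM38B, a cation channel of the endoplasmic reticulum, fell by 0.86 and COLGALT1, which adds galactose to hydroxylysine, by 0.62 (adjusted p = 0.00521 and 0.0179). With siRNA 1, TMEM38B fell by 0.43 (adjusted p = 0.0484) and the 21 others were not called. This is 4.55% of the 22, beside 13.3% of all genes. In the arrays labelled siRNA 2, the collagen chaperone SERPINH1 (-0.64), the prolyl isomerase FKBP10 (-0.66) and the coat protein SEC24D (-0.64) fell (limma adjusted p = 0.0472, 0.0356 and 0.0401). These are 13.6% of the 22, beside 6.61% of all genes. With the replicate block, the prolyl 3-hydroxylase family member P3H3 (-0.44) and SEC24D (-0.42) were also called lower with siRNA 1 (adjusted p = 0.0296 and 0.0406). The block called 17.9% of all genes there. Between the lines 8 of the 22 (36.4%) were lower in A375, beside 9.09% of all genes, among them SEC24D (-1.40), the prolyl 3-hydroxylase P3H1 (-1.23) and SERPINH1 (-1.09).

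Of 18 genes for processing and crosslinking 11 were tested. BMP1, which cleaves procollagen at its C-terminal end, was the 1 called with overexpression (9.09% of the 11, beside 7.17% of all genes). It was 1.62-fold higher (adjusted p = 0.0471), and the call was lost without overexpression replicate 3 (adjusted p = 0.083). Without the replicate block, 1 of the 11 was called with siRNA 1 and 1 in the arrays labelled siRNA 2, beside 13.3% and 6.61% of all genes. FURIN, a protease that activates others of this group, rose from 4.99, 4.79 and 5.76 to 7.08, 6.69 and 7.30 with siRNA 1 (3.59-fold, adjusted p = 0.000881). It was at 5.87, 5.41 and 6.24 in the arrays labelled siRNA 2. Its difference of 0.66 there was called with the replicate block alone (adjusted p = 0.046, against 0.225 without it). The block called 10.4% of all genes there. ADAMTS3, a procollagen N-proteinase not detected with control siRNA, was at least 1.41-fold higher in the arrays labelled siRNA 2 (adjusted p = 0.032). Between the lines 1 of the 11 was higher in A375 and 2 were lower (27.3%), beside 20.9% of all genes called either way. LOXL3 of this list was at 11.35, 11.12 and 11.48 with control siRNA in WM266-4 and at 9.44 and 9.36 with A375 vector.

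All 12 collagen receptors were tested, and 3 rose with overexpression, beside 3.69% of all genes. ITGA11, a subunit of a collagen-binding integrin of mesenchymal cells, went from 4.76 and 4.88 to 6.61, 6.93 and 8.79, a 6.14-fold rise (adjusted p = 0.00429). ITGA1, which pairs with the same beta subunit, rose 2.88-fold (adjusted p = 0.0469), and MRC2, an endocytic receptor for collagen, 1.77-fold (adjusted p = 0.0291). Without overexpression replicate 3, ITGA11 alone was called (log2 difference 1.94 against 2.62), and ITGA1 and MRC2 were lost (adjusted p = 0.0988 and 0.0563). With siRNA 1, ADGRG1, an adhesion receptor that binds type III collagen, rose by 0.81 (adjusted p = 0.00704). It was the 1 receptor called there without the replicate block, beside 13.3% of all genes. ITGA11 was called lower with the replicate block for siRNA 1 (-0.64, adjusted p = 0.0209) and in the arrays labelled siRNA 2 (-0.78, adjusted p = 0.0155), and not without it (adjusted p = 0.351 and 0.295). The block also called the integrin subunits ITGA2 higher with siRNA 1 (0.67, adjusted p = 0.0194) and ITGA1 and ITGA10 lower in the arrays labelled siRNA 2 (-0.97 and -0.99, adjusted p = 0.0123 and 0.00244). Directly compared under the block, ITGA1, ITGA2 and ITGA10 were higher with siRNA 1 than in the arrays labelled siRNA 2, by 0.73, 0.69 and 0.72 (adjusted p = 0.0421, 0.0313 and 0.0108). MRC2, detected on 0 of the 3 arrays labelled siRNA 2, was at least 1.45-fold higher with siRNA 1 (block adjusted p = 0.0367). Over all genes, the block called 17.9% with siRNA 1, 10.4% in the arrays labelled siRNA 2 and 8.49% in their direct comparison. Between the lines 5 receptors (41.7%) were lower in A375, beside 9.09% of all genes, among them ITGA11 (-2.15) and ITGA1 (-1.96).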

How the data were processed

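Total RNA labelled with biotin was measured on 14 Illumina bead arrays. Per the file headers, the deposited intensity of each probe is linear and not normalized, and a detection p-value stands beside it in the deposited table. The authors also deposited processed log2 values, which from their distributions are quantile normalized within each line. No source used here names the scanner software. The intensity column of empty vector replicate 1 matched that of overexpression replicate 3 within 1% for 100% of probes (at most 7.406% for any other pair), so the antilog of the authors' log2 value replaced it.

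Of 48107 probes, 48097 had all values. A single symbol was annotated (2016) for 30107, several for 8 and none for 17982. Background was corrected with normexp from detection p-values (offset 16), and the 14 arrays were quantile normalized (limma 3.58.1, R 4.3.3, statmod 1.5.0). Probes with detection p under 0.05 on at least 2 arrays were kept, and the brightest named probe stood for its gene. One limma fit (lmFit, eBayes) held the 5 groups without covariates (9 residual and 5.11 prior degrees of freedom). The threshold was an adjusted p under 0.05 (Benjamini-Hochberg, over 15544 genes), and every adjusted p is from limma. Where the replicate block changed a call of a collagen or list gene in WM266-4, it is printed. Same-numbered arrays there had correlated deviations from their group means in all 9 pairs (r from 0.142 to 0.273). Other pairs had -0.195 to -0.047. Deviations from a group mean cancel within the group, so these negative values follow from the positive ones. A lower bound on a fold takes, for the dim group, the higher of each array's lowest detected signal and the probe's own. The fit was tested on simulated data with independent noise on each array. That test does not cover the shared deviations of same-numbered arrays or the replaced vector array. The number of arrays limits the precision. Members, classes and lists were chosen with earlier results of these data known. All collagen genes called are named, and from other lists called members, at most the 6 largest per list.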

Additional observations from a re-analysis of the deposited data

Results flagged for a closer look

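FOXD1 and the synthesis, processing and receptor genes that differed between siRNA 1 and the arrays labelled FOXD1 siRNA 2, by a direct limma contrast of these groups, are given here; no collagen gene was called in it. FOXD1 differed by -1.49 on the log2 scale, lower on 3 of 3 siRNA 1 arrays than on any array labelled siRNA 2 (adjusted p = 0.000105). It was detected on 1 of the 3 siRNA 1 arrays, so this difference is measured against values near background. TMEM38B, the channel of the endoplasmic reticulum, differed by -0.81 (adjusted p = 0.00243), with the group means of siRNA 1 and of the labelled siRNA 2 arrays at 8.18 and 8.98. FKBP10, the prolyl isomerase, differed by 0.78 (adjusted p = 0.0155), with means at 7.30 and 6.51. FURIN, the protease, differed by 1.18 (adjusted p = 0.0295), with means at 7.02 and 5.84. No group held enough arrays for a test of single outlying arrays.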

How the results depend on the processing

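The counts of called collagen genes were recomputed with another offset, no background correction, the authors' values, no or a stricter detection filter, the mean of the kept probes, trended moderation, the replicate block, the copied column and each array left out; normalization within each line was run for all but the comparison of the lines. No call changed direction. The size of a difference depended on the processing, and the rises of COL8A1 and COL12A1 with overexpression were smaller on the authors' values. The replicate block gave 5 calls for siRNA 1 against 1, 3 for the arrays labelled siRNA 2 against 1, and 1 for their difference against 0; the numbers did not pair the A375 arrays (r = -0.029 and 0.038 in 2 pairs), and there the block gave 8 calls with overexpression (9.72% of all genes) and 10 between the lines (22.8%), the former adding COL6A2 and losing COL7A1, with overexpression replicate 3 adding no information. With the copied column as deposited, overexpression had 0 calls against 8 (3 at an unadjusted p under 0.05, and 0 calls among all genes) and the lines 4 against 9, since 1 vector array then repeats an overexpression array. Leaving out 1 array gave 0 to 1 calls for siRNA 1, 1 for the arrays labelled siRNA 2, 0 for their difference, 3 to 10 for overexpression and 4 to 11 between the lines. Without overexpression replicate 2 there were 5, with COL14A1, COL22A1 and COL7A1 lost; the cause was not tested. Chosen after seeing the data, the fit without overexpression replicate 3 was also run for the other lists: the 3 synthesis calls were kept in number, the processing list lost BMP1, the receptors went from 3 calls to 1 and the melanocytic markers from 1 to 2. COL18A1 was called with overexpression under 4 settings, among them the authors' values (adjusted p = 0.0481). Signal near background limits COL1A1, COL3A1, COL6A3 and other genes detected on few arrays, whose folds are compressed by the offset.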
